A study of Mus musculus with 20 samples.

Results

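Mouse colonic organoid (colonoid) cultures were examined for 10 genes of the epithelial tight junction, namely the claudins Cldn1, Cldn2, Cldn3, Cldn4, Cldn7, Cldn15 and Cldn23, occludin (Ocln), zonula occludens protein ZO-1 (Tjp1) and junctional adhesion molecule A (F11r). They were chosen by name, and the values of all transcripts of each gene were summed, which gave 10 genes of the 35240 gene symbols in the table. All 10 passed the filter for testing, a mean of at least 1 over the libraries. Transcript abundance had been measured by RNA-seq in 20 libraries of WT (C57BL/6) and Tnfr2-/- cultures collected at 5 times counted in days post passage (DPP), namely 1, 2, 3, 5 and 7. Tnfr2-/- was a germline, whole-body knockout of Tnfrsf1b, which encodes tumor necrosis factor receptor 2 (TNFR2), on the background B6.129S2-Tnfrsf1b tm1Mwm/J. All cultures came from crypts of the distal colon of young adult mice, were embedded in Matrigel under IntestiCult medium, and had been passaged 5 times and strained through a mesh before seeding. Each of the 10 groups held 2 libraries, 1 from each of 2 mice per genotype, so that 1 animal gave 5 libraries, one for each day. Mice of both sexes were used, and the sex of each was not given. DPP 1 to 3 are called early and DPP 5 and 7 late, as the study grouped them. With 2 mice per genotype, the genotype cannot be told apart from other differences between these mice.

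Tight junctions seal the cleft between neighbouring epithelial cells just below the apical surface. Claudins are membrane proteins that line up between cells and decide which ions and how much water can pass, some by sealing the cleft and others, such as claudin-2 and claudin-15, by forming channels. Occludin and JAM-A sit in the same membrane strands, and ZO-1 is the scaffold under the membrane that ties them to actin. In the colon the crypt base and the surface are known to use different claudins.

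The promoters of the 2 genes called between the genotypes (Cldn1 and Cldn4) and of the 3 genes whose late and early Tnfr2-/- libraries did not overlap (Cldn2, Cldn4 and F11r) are shown first. RefSeq starts on GRCm38.p6 were matched for 9 of the 10 genes, with 11 starts in all since Cldn7 and Ocln have 2 each, and Cldn23 had no entry. Each run is the 150 bases before the start, written 5′ to 3′ on the strand of the gene. Capitals mark matches on either strand to 7 short motifs, spelled out after the runs, none of which overlap in the runs printed. Cldn1 lies at chr16:26371840-26371989 on the minus strand, Cldn2 at chrX:139800658-139800807 on the plus strand, Cldn4 at chr5:134946935-134947084 on the minus strand and F11r at chr1:171437411-171437560 on the plus strand.
Cldn1: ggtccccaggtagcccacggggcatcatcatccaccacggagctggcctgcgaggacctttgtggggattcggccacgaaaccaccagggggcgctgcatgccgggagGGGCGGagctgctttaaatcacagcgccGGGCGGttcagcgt
Cldn2: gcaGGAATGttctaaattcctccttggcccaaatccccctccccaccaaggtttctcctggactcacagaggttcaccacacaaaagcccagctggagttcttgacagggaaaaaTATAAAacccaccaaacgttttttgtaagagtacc
Cldn4: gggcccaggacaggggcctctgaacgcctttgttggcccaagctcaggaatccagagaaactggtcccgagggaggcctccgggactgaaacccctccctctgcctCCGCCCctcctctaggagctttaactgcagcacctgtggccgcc
F11r: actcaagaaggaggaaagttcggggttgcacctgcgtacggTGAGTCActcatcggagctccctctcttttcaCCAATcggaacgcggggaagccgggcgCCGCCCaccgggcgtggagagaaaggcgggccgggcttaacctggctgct
Cldn2 was the one start of the 11 with a TATA box, searched as TATAAA, which lay 35 to 30 bases before the start, and 7.57% of 32851 promoter windows of this length hold one. A GC box, searched as GGGCGG, stood in 8 of the 11 starts, against 28.6% of all windows. The F11r promoter held the one AP-1 motif, searched as TGANTCA and present in 4.24% of all windows, and one of the 2 starts with the pentamer CCAAT (24.5%). A TEAD motif, searched as GGAATG, was found before Cldn2 and before 1 start of Cldn7 (7.59%). Neither the CDX motif, searched as TTTATG (6.33%), nor the motif of the epithelial GRHL factors, searched as AACNNGTT (1.98%), was found in any of the 11 windows. These are letter matches in short windows and not evidence of binding.

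All values below are in normalised TPM, that is TPM, an abundance corrected for transcript length, divided by a size factor per library. The genes fell into 3 tiers of level. Cldn4 (614 ± 245, SD, n = 20), Cldn7 (419 ± 111) and Cldn3 (234 ± 39), claudins of the sealing kind, stood at the top with F11r at 193 ± 34. Tjp1 and Ocln followed with means of 77.1 and 53.2, and Cldn2, Cldn23, Cldn1 and Cldn15 had means of 19.5, 9.85, 3.90 and 1.10. Neighbours in this order overlapped in several places. Cldn4 was above Cldn7 in 17 of 20 libraries, Cldn2 above Cldn23 in 16 and Cldn1 above Cldn15 in 16, while Cldn7 was above Cldn3 and Tjp1 above Ocln in all 20. The authors' mean of log counts gives the depth behind these levels. It came to a geometric mean of 1891 estimated reads per library for Cldn4, 84.1 for Cldn2, 27.4 for Cldn23 and 20.0 for Cldn1, and no such mean was given for Cldn15. Of 18 further claudins looked for, 15 had a mean under 1 and were not tested, and only Cldn8, Cldn12 and Cldn14 passed.

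**Figure D1:**
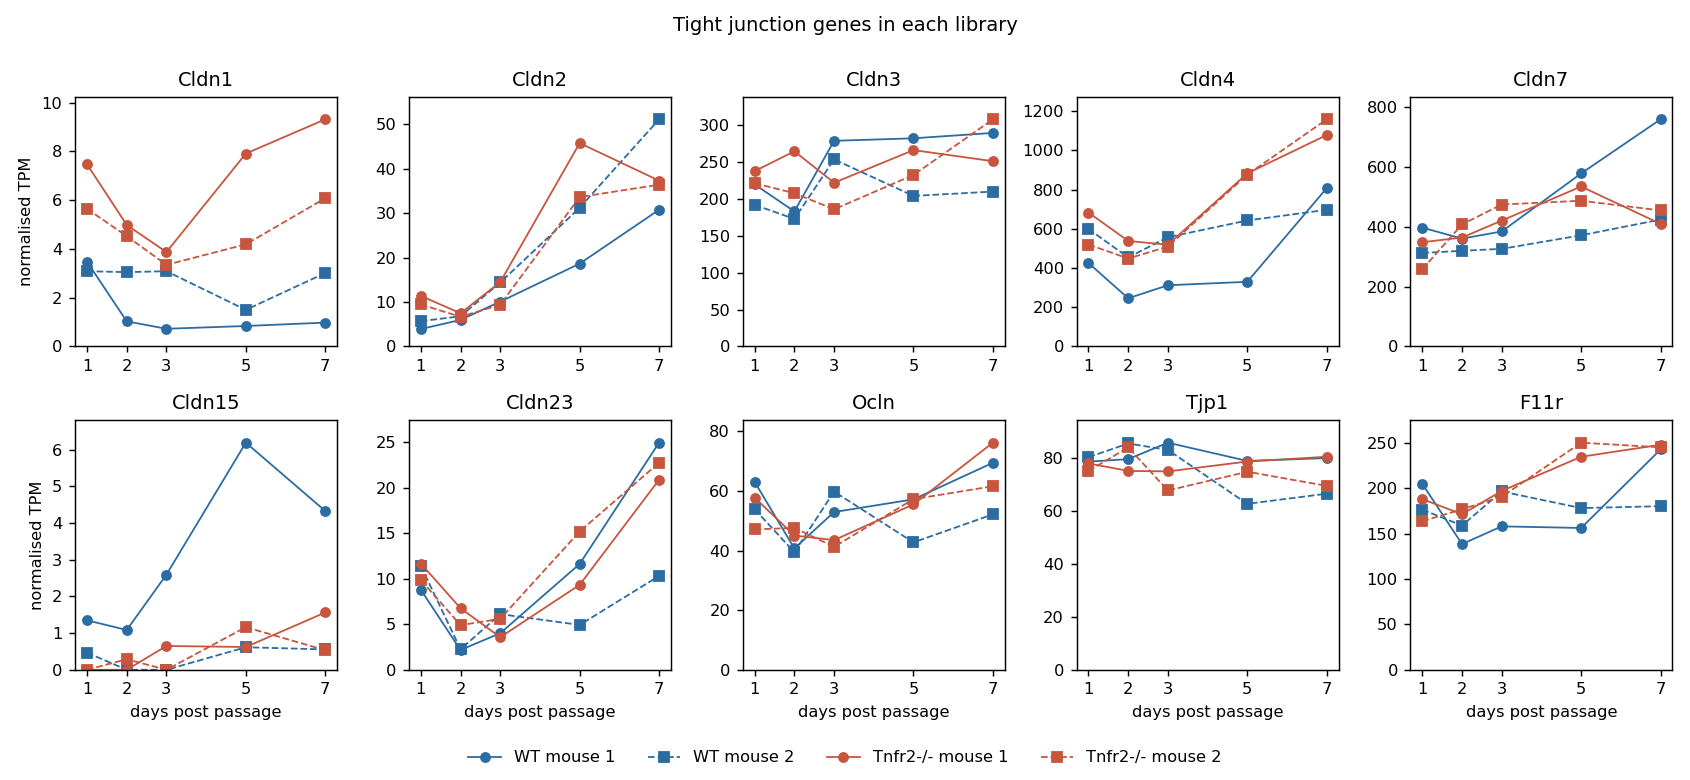
Normalised TPM (vertical axes, from 0) of the 10 tight junction genes against days post passage, with 1 point per library, WT in blue, Tnfr2-/- in red, and lines joining the libraries of 1 mouse. Both Tnfr2-/- points lie above both WT points at all 5 days for Cldn1, Cldn2 is higher at DPP 5 and 7 than at DPP 1 to 3 in all 4 mice, and Cldn15 reaches its highest values in WT mouse 1.

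Several measures of the libraries bear on what follows. Tnfrsf1b itself had a mean of 15.3 ± 3.1 in WT and 5.80 ± 2.84 in Tnfr2-/- (SD, n = 10 each), and the highest knockout library (11.5) reached the lowest WT library (11.1). Its fitted log2 difference was -1.35 (adjusted p = 9.72e-05, limma over all genes). The epithelial marker Epcam was present in every library at 362 to 1885. It was itself called higher in Tnfr2-/- over all days (limma, log2 0.36 ± 0.10, adjusted p = 0.0335), with late means of 1165 in WT and 1557 in Tnfr2-/-. Of the 8 epithelial markers Epcam and Cdh1 were called higher and none lower, against 7.60% of all genes tested. Fibroblast markers were present throughout, with all 8 listed genes above the filter, Pdgfra between 20.6 and 99.7, and a summed level in the late cultures of 1216 to 3920 in WT and 3684 to 8403 in Tnfr2-/-. Goblet cell markers summed to 184 to 1802 in late WT and to 99.1 to 244 in late Tnfr2-/- cultures, and absorptive colonocyte markers to 306 to 996 and to 324 to 381. Krt20 made up most of the absorptive sum in late Tnfr2-/- cultures (301 to 363), while Car1 had late means of 366 in WT and 11.1 in Tnfr2-/-. In bulk RNA, fewer cells of a type and less RNA per cell cannot be told apart, and the part of these cell types in the results below was not tested.

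Cldn1, a claudin needed for barrier sealing in epithelia, separated the genotypes most among the 10 genes on the log2(value + 1) scale. On the linear scale the ratio of means over all days was 2.76 for Cldn1 and 0.280 for the scarce Cldn15. The Cldn1 gene (ENSMUSG00000022512) lies at chr16:26356642-26371841 on the minus strand of GRCm38. WT libraries ranged from 0.725 through a median of 2.25 to 3.47, and Tnfr2-/- libraries from 3.35 through 5.31 to 9.31. The ranges touched only because the lowest knockout library, mouse 2 at DPP 3, fell under the highest WT library, mouse 1 at DPP 1. Within each day both knockout values were above both WT values, at all 5 days. These were the same 2 mice per genotype each day, and the share of all genes with this pattern was not counted. F11r came next, at 3 days. Both knockout values lay below both WT values at 2 days for Tjp1 and at 1 day each for Cldn3, Ocln and Cldn15. The means were 6.55 against 3.28 at DPP 1, 3.61 against 1.91 at DPP 3 and 7.69 against 1.99 at DPP 7. The ratio of means was therefore 2.00 at DPP 1, 1.89 at DPP 3 and 3.86 at DPP 7, with the widest ratio, 5.17, at DPP 5.

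Across all days, with day as a term, Cldn1 was higher in Tnfr2-/- by 1.17 ± 0.21 (SE) on the log2(value + 1) scale, with an adjusted p of 0.00267 by limma with Benjamini-Hochberg adjustment over 13539 genes. It was 1 of 2 of the 10 genes called in this comparison, against a background of 7.60% of all genes tested, and the other was Cldn4. The median log2 difference of the 10 genes, Cldn15 included, was 0.14, against -0.03 over all genes tested. The call was kept on leaving out each of the 20 libraries in turn, with log2 values between 1.07 and 1.29. It was lost on leaving out Tnfr2-/- mouse 1 (0.98, adjusted p = 0.101) and on mouse means, 2 mice against 2 (adjusted p = 0.362), a setting in which 7 of all genes were called. In the late cultures alone the 4 WT values were 0.839, 0.977, 1.50 and 3.01 and the 4 knockout values 4.19, 6.08, 7.91 and 9.31, and the groups did not overlap. The late log2 difference was 1.63 ± 0.34 (adjusted p = 0.0145), and Cldn1 was the only one of the 10 genes called among the late cultures, where 6.45% of genes were. Leaving out WT mouse 1 at DPP 5, or Tnfr2-/- mouse 1 at DPP 5 or DPP 7, took the adjusted p to between 0.0606 and 0.0657, and on mouse means it was 0.270. The late call was also lost without WT mouse 1 (1.27, adjusted p = 0.0522), Tnfr2-/- mouse 1 (1.30, adjusted p = 0.348) or Tnfr2-/- mouse 2 (1.96, adjusted p = 0.215). In the early cultures the difference was 0.87 ± 0.28 (adjusted p = 0.179), and none of the 10 genes was called, against 1.20% of all genes. At an unadjusted p under 0.05 there were 1 of the 10 and 1746 of the 13539 genes tested.

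The time course of Cldn1 also differed in shape between mice, without passing a test. WT mouse 1 dropped from 3.47 at DPP 1 to between 0.725 and 1.03 afterwards, whereas WT mouse 2 stayed near 3 at 4 of the 5 days and read 1.50 at DPP 5. Both knockout mice were lowest at DPP 3 (3.87 and 3.35) and higher again at DPP 7 (9.31 and 6.08). The late against early change was -0.38 ± 0.31 in WT (adjusted p = 0.424) and 0.39 ± 0.31 in Tnfr2-/- (adjusted p = 0.431). The test of the difference between these changes gave 0.76 ± 0.44 (adjusted p = 0.528). None of the 10 genes was called for a genotype effect that depended on the phase, and 0.148% of all genes were.

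Some markers of other cell types were also called higher in Tnfr2-/- over all days, and others were not. In this comparison 7.60% of all genes tested were called. Of the 8 fibroblast markers 3 were called higher, namely Dcn (log2 1.65), Vim (1.04) and Thy1 (1.37), and none lower. Of the 2 immune markers that passed the filter Cd68 was called (1.14) and Lyz2 was not (0.10, adjusted p = 0.886). All 5 goblet markers tested had a lower fitted value in Tnfr2-/- (median log2 -1.94), and 1 was called, Fcgbp (-1.54). Of the 7 absorptive markers 1, Krt20, was higher (0.35, not called), the median was -0.81, and Car1 was called lower (-3.02). The immune list summed to 8.75 to 16.9 in WT and 15.5 to 45.2 in Tnfr2-/-, nearly all of it from Cd68 (7.12 to 15.8 and 14.2 to 42.5), a macrophage and lysosomal protein, and the leukocyte marker Ptprc reached at most 0.753 in any library, with means of 0.227 in WT and 0.137 in Tnfr2-/-. The squamous list was carried by Krt14 (288 to 2432 over all libraries), which was not called (0.32, adjusted p = 0.331), while Trp63 reached at most 0.338 and Krt5 at most 1.93. Krt13 was the squamous gene called higher in Tnfr2-/- (log2 1.49 ± 0.37, adjusted p = 0.0221). The part of these, and of Epcam, in the Cldn1 and Cldn4 values was not tested. The 3 genes whose log2 values followed Cldn1 most closely over the 20 libraries were Cd53, a leukocyte tetraspanin (Pearson r = 0.900), Arl4c, a small GTPase (0.899), and Pls3, an actin-bundling protein (0.876). These are descriptions over libraries that share 4 mice, 2 genotypes and 5 days.

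Cldn4, one of the sealing claudins and the most abundant of the 10, was called higher in knockout than in WT cultures over all days, and the groups separated at the late days. Its gene (ENSMUSG00000047501) lies at chr5:134945119-134946934 on the minus strand. At DPP 5 the WT values were 330 and 642 and the knockout values 883 and 876. At DPP 7 they were 807 and 697 in WT and 1078 and 1158 in Tnfr2-/-. All 4 late knockout libraries were thus above all 4 late WT libraries, as also for Cldn1, and 5.35% of genes tested showed such a separation. At DPP 1, 2 and 3 the genotypes overlapped, with WT values from 245 to 599 and knockout values from 448 to 683.

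The fitted difference over all days was 0.52 ± 0.15 (adjusted p = 0.0376), and the ratio of means was 1.42. This call was fragile. It was lost on leaving out any 1 of 13 of the 20 libraries, with log2 values over all 20 such fits between 0.42 and 0.60. The mouse as a correlated block gave an adjusted p of 0.0708, no filter 0.0700 and mouse means 0.457, and libraries rescaled to equal sums gave 0.45 with an adjusted p of 0.0610. WT mouse 1 had less Cldn4 than WT mouse 2 at 4 of 5 days (means of 424 and 590), and without that mouse the difference was 0.22 (adjusted p = 0.296). The call was also lost without Tnfr2-/- mouse 1 (0.46, adjusted p = 0.290) or mouse 2 (0.58, adjusted p = 0.207). In the late cultures the difference was 0.75 ± 0.24 (adjusted p = 0.0827, 0.0201 at 0.99 without WT mouse 2 at DPP 5, and 0.0443 at 0.57 and 0.00263 at 0.94 without WT mouse 1 and mouse 2), and in the early cultures 0.36 ± 0.20 (adjusted p = 0.474).

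**Figure D2:**
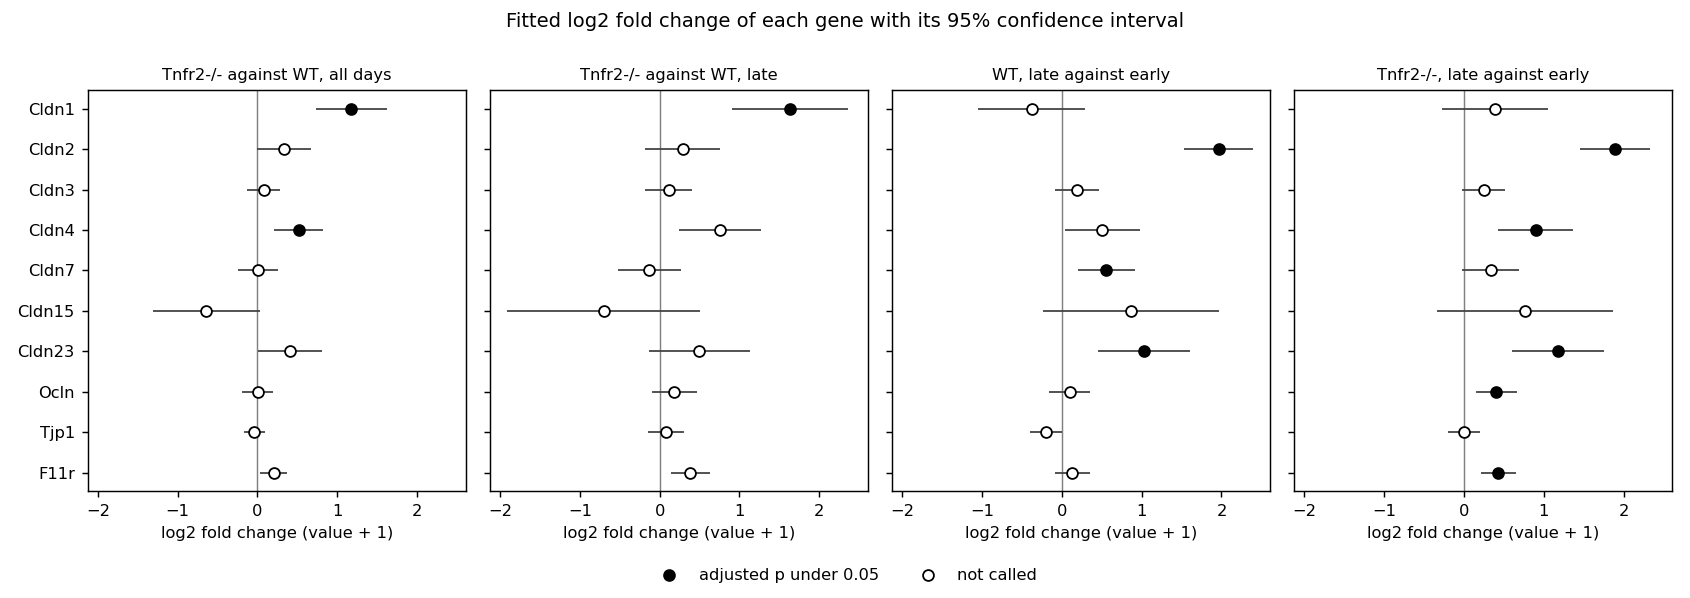
Fitted log2 fold change of normalised TPM + 1 (horizontal axes) of each of the 10 genes in 4 comparisons, with bars for the 95% confidence interval and filled circles for an adjusted p under 0.05. Between genotypes Cldn1 is filled in both panels and Cldn4 over all days only, and between phases Cldn2 lies farthest to the right in both genotypes. Cldn15, which passed the filter through WT mouse 1, is drawn without a call.

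Claudin-2, the channel-forming claudin of the crypt, had the largest late change of the 10 genes on the log2(value + 1) scale in both genotypes. On the linear scale the ratio of Cldn15 in Tnfr2-/- was larger (6.21, from 0.156 to 0.970), and so was its log2 change with a pseudocount of 0.1. Cldn2 (ENSMUSG00000047230) lies at chrX:139800828-139811386 on the plus strand. In WT mouse 1 its value was 3.92, 5.98, 10.1, 18.6 and 30.8 at DPP 1, 2, 3, 5 and 7, and WT mouse 2 read 5.69, 6.80, 14.4, 31.2 and 51.1. In Tnfr2-/- mouse 1 the values were 11.4, 7.47, 14.5, 45.8 and 37.3, and in mouse 2 they were 9.45, 6.68, 9.38, 33.6 and 36.4. Every late library was above every early library of its genotype, and the WT mice rose at each step, whereas both knockout mice first dipped at DPP 2. Cldn2 was the only 1 of the 10 genes with such a separation in WT, where 4.97% of genes had one. In Tnfr2-/- it shared the separation with Cldn4 and F11r, and 9.56% of genes had one.

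The late against early change of Cldn2 was 1.96 ± 0.20 on the log2 scale in WT (adjusted p = 0.000115, ratio of means 4.22) and 1.89 ± 0.20 in Tnfr2-/- (adjusted p = 9.89e-05, ratio 3.90). Both calls were kept on leaving out each library in turn and on mouse means. The WT call was also kept without any 1 of the 4 mice, and the Tnfr2-/- call was lost without knockout mouse 1 (adjusted p = 0.0865) or mouse 2 (0.0636). The difference between the changes was -0.07, with a 95% confidence interval from -0.68 to 0.54. Between genotypes Cldn2 was not called (0.33 ± 0.16 over all days, adjusted p = 0.235). At DPP 1 both knockout values were above both WT values, with a ratio of means of 2.17, as they also were at DPP 5 (1.59), and at DPP 7 the ratio was 0.900. The 3 genes that followed Cldn2 most closely over the 20 libraries were N4bp2l1 (Pearson r = 0.943), Nlrp10 (0.942) and the deubiquitinase Usp22 (0.936).

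Cldn23, a claudin of differentiated colonic surface cells, rose with time in both genotypes after a dip. It was lowest at DPP 2 in 3 of the 4 mice and at DPP 3 in Tnfr2-/- mouse 1 (3.57), and in WT mouse 2 it read 11.4 at DPP 1 and 10.3 at DPP 7. The 4 late WT values were 4.93, 10.3, 11.6 and 24.9, and the 4 late knockout values 9.33, 15.2, 20.9 and 22.7. The change was 1.03 ± 0.27 in WT (adjusted p = 0.0168) and 1.18 ± 0.27 in Tnfr2-/- (adjusted p = 0.00805). The WT call rested on WT mouse 1, since without its library at DPP 5 or at DPP 7 the change was 0.76 or 0.73 (adjusted p = 0.0906 and 0.0971). On mouse means the adjusted p was 0.108 in WT and 0.0791 in Tnfr2-/-. The Tnfr2-/- call was also lost without knockout mouse 1 (0.203) or mouse 2 (0.300). The genotype difference was 0.41 ± 0.19 (adjusted p = 0.220).

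Cldn7, a sealing claudin also found along the lateral membrane, was called for the late change in WT and not in Tnfr2-/-. WT mouse 1 read 397 at DPP 1, 578 at DPP 5 and 758 at DPP 7, and WT mouse 2 read 312, 371 and 424. The change was 0.56 ± 0.17 in WT (adjusted p = 0.0322) and 0.33 ± 0.17 in Tnfr2-/- (adjusted p = 0.185), and the difference between them was not called (-0.22 ± 0.24, adjusted p = 0.749). The WT call was lost on leaving out any 1 of 5 libraries, with 0.35 and an adjusted p of 0.169 without WT mouse 1 at DPP 7, and without the filter on low values (adjusted p = 0.0593). The Tnfr2-/- change, at the same size, was called without WT mouse 1 (adjusted p = 0.0426) or WT mouse 2 (adjusted p = 0.0418). Its main transcript held 76.6% ± 6.3 of the gene's value in WT and 80.6% ± 12.3 in Tnfr2-/- (SD, n = 10 each). Over all days Cldn7 differed between the genotypes by 0.01 ± 0.12, with a 95% confidence interval from -0.25 to 0.26.

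Cldn4 rose late in the knockout cultures by 0.90 ± 0.22 (adjusted p = 0.0114), from a mean of 536 ± 78 to 999 ± 142. The call was kept on leaving out each library and lost without knockout mouse 1 (1.03, adjusted p = 0.256) or mouse 2 (0.76, adjusted p = 0.348). In WT the change was 0.51 ± 0.22 (adjusted p = 0.122). With the replicate number as a block, where equal numbers are different mice between the genotypes, the same value had an adjusted p of 0.0284, and it was not called under the 7 other alternatives of pseudocount, filter, scaling, identifier, block and mouse mean (adjusted p up to 0.203). It was called without WT mouse 1 at DPP 5 (0.75, adjusted p = 0.0413), without WT mouse 2 at DPP 2 (0.66, adjusted p = 0.0493) and without WT mouse 2 altogether (0.69, adjusted p = 0.00972). WT mouse 1 read 330 at DPP 5 and 807 at DPP 7, and WT mouse 2 read 599, 454 and 557 early and 642 and 697 late. The difference between the genotypes in this change was 0.39 ± 0.31 (adjusted p = 0.653).

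In all, 3 of the 10 genes rose late in WT (Cldn2, Cldn23 and Cldn7), against 20.1% of all genes called, and 5 rose late in Tnfr2-/- (Cldn2, Cldn23, Cldn4, F11r and Ocln), against 20.3%. None fell. Each of the 5 Tnfr2-/- calls was lost on leaving out either knockout mouse (adjusted p from 0.0636 to 0.386), fits in which 2 of all genes tested were called. The WT calls of Cldn7 and Cldn23 were lost without WT mouse 1 (adjusted p = 0.228 and 0.546) and without either knockout mouse. The median log2 change of the 10 genes, Cldn15 included, was 0.35 in WT and 0.42 in Tnfr2-/-, and over all genes tested it was 0.02 in both. The epithelial marker Epcam rose over the same days, from means of 439 to 1165 in WT and 525 to 1557 in Tnfr2-/-, and its part in these changes was not tested. Of all genes called in WT, 1571 were higher and 1153 lower, and with libraries rescaled to equal sums 1275 and 1479. In Tnfr2-/- the split was 1411 to 1344, and 1111 to 1710 after the rescaling. The same rescaling moved the split between genotypes over all days from 611 higher and 418 lower to 424 and 722.

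Among the non-claudin members, F11r, the adhesion molecule JAM-A, moved in the knockout cultures. Its 4 late Tnfr2-/- values were 234, 245, 248 and 250, and the early ones ran from 164 through a median of 182 to 197. The late values had an SD of 6.86 about a mean of 244, and the groups did not overlap. In WT the late values were 156, 178, 180 and 243 and the early ones 138 to 205. The change was 0.43 ± 0.10 in Tnfr2-/- (adjusted p = 0.00982, and 0.0507 on mouse means) and 0.13 ± 0.10 in WT (adjusted p = 0.402), and the difference between these changes did not pass (limma, 0.30 ± 0.15, adjusted p = 0.442). Late knockout and WT cultures differed by 0.39 ± 0.11 (adjusted p = 0.0591), which became 0.0469 with libraries rescaled by the median ratio and 0.0239 without WT mouse 1 at DPP 7. It was also called without WT mouse 2 at DPP 5 (adjusted p = 0.0452), and without WT mouse 1 (adjusted p = 0.0310) or WT mouse 2 (adjusted p = 0.0401) altogether.

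Occludin, a strand protein that regulates leak, rose late in Tnfr2-/- from a mean of 47.0 ± 5.7 to 62.6 ± 9.4, a change of 0.40 ± 0.12 (adjusted p = 0.0294). The call was lost on leaving out any 1 of 7 libraries. With all libraries kept it was also lost with equal sums (adjusted p = 0.0601) and on mouse means (adjusted p = 0.105). In WT the change was 0.10 ± 0.12 (adjusted p = 0.598). Over all days the genotype means were 53.1 ± 9.9 in WT and 53.3 ± 10.6 in Tnfr2-/-, and the 95% confidence interval of the log2 difference ran from -0.19 to 0.20. The main Ocln transcript held 66.2% ± 9.3 of the value in WT and 59.5% ± 10.5 in Tnfr2-/-.

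Tjp1, the scaffold, was the steadiest of the 10 genes. All 20 libraries lay between 62.8 and 85.9, and the genotype means were 78.2 ± 7.6 in WT and 75.9 ± 4.8 in Tnfr2-/-. Its 95% confidence interval between genotypes was -0.17 to 0.10 on the log2 scale. Late against early it changed by 0.00 ± 0.09 in Tnfr2-/- and by -0.19 ± 0.09 in WT (adjusted p = 0.166, and 0.0477 at -0.27 with equal sums). Cldn3, the third abundant claudin, ran from 173 to 289 in WT and from 186 to 308 in Tnfr2-/-. Its genotype difference was 0.08 ± 0.10 and its late changes 0.19 ± 0.13 in WT and 0.24 ± 0.13 in Tnfr2-/-, none of them called. The days went both ways. Both knockout values were above both WT values at DPP 1 (ratio of means 1.115) and DPP 2 (1.327) and below them at DPP 3 (0.766).

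Cldn15, a channel-forming claudin, was scarce and highest in 1 animal. WT mouse 1 read 1.35, 1.08, 2.59, 6.19 and 4.33 at DPP 1, 2, 3, 5 and 7, and the other 15 libraries lay between 0 and 1.56, with 6 of the 20 libraries listed at 0. The ratio of the WT mice was 9.50, and Cldn15 passed the filter on the strength of that mouse. The genotype means were 1.72 ± 2.06 in WT and 0.482 ± 0.542 in Tnfr2-/- (SD, n = 10 each), given without a test for that reason. The absorptive marker Car1 was also higher in WT mouse 1 than in WT mouse 2, at 5 of 5 days with a ratio of 4.67, as were Cldn7 at 5 of 5 days with a ratio of 1.41 and Cldn3 at 5 of 5 days with 1.21. Cldn1 (0.513), Cldn2 (0.635) and Cldn4 (0.719) were lower in that mouse. In the knockout pair the ratios of these 3 were 1.41, 1.22 and 1.05. No test was run on 1 animal against 1. Several genotype differences depended on which WT mouse was kept. Without WT mouse 2 each WT group is 1 library, so sizes are given and no call is drawn. The Cldn2 difference over all days was then 0.58, against 0.33 with both WT mice. In the contrasts of group means without that mouse, Cldn1 read 1.22 and Cldn4 0.73 in the early cultures. Cldn7 read -0.50 in the late ones, against -0.13 with both WT mice. No size is given for Cldn15, which had entered the test through the WT mouse that was kept.

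The makeup of claudin mRNA was dominated by Cldn4, Cldn7 and Cldn3. The 7 claudins together summed to 1015 ± 131 in early and 1448 ± 320 in late WT cultures, and to 1160 ± 96 and 1797 ± 142 in Tnfr2-/- (SD, n = 6 and 4). Cldn4 held 41.9% ± 9.3 of that sum in early and 42.5% ± 11.2 in late WT cultures. In Tnfr2-/- it held 46.2% ± 4.5 early and 55.4% ± 4.3 late, while Cldn7 read 32.6% ± 6.0 and 26.4% ± 4.2. Cldn2 went from 0.766% ± 0.322 to 2.32% ± 1.00 in WT and from 0.844% ± 0.225 to 2.14% ± 0.34 in Tnfr2-/-. Cldn1 never passed 0.575% of the sum in any library. The shares were not tested.

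**Figure D3:**
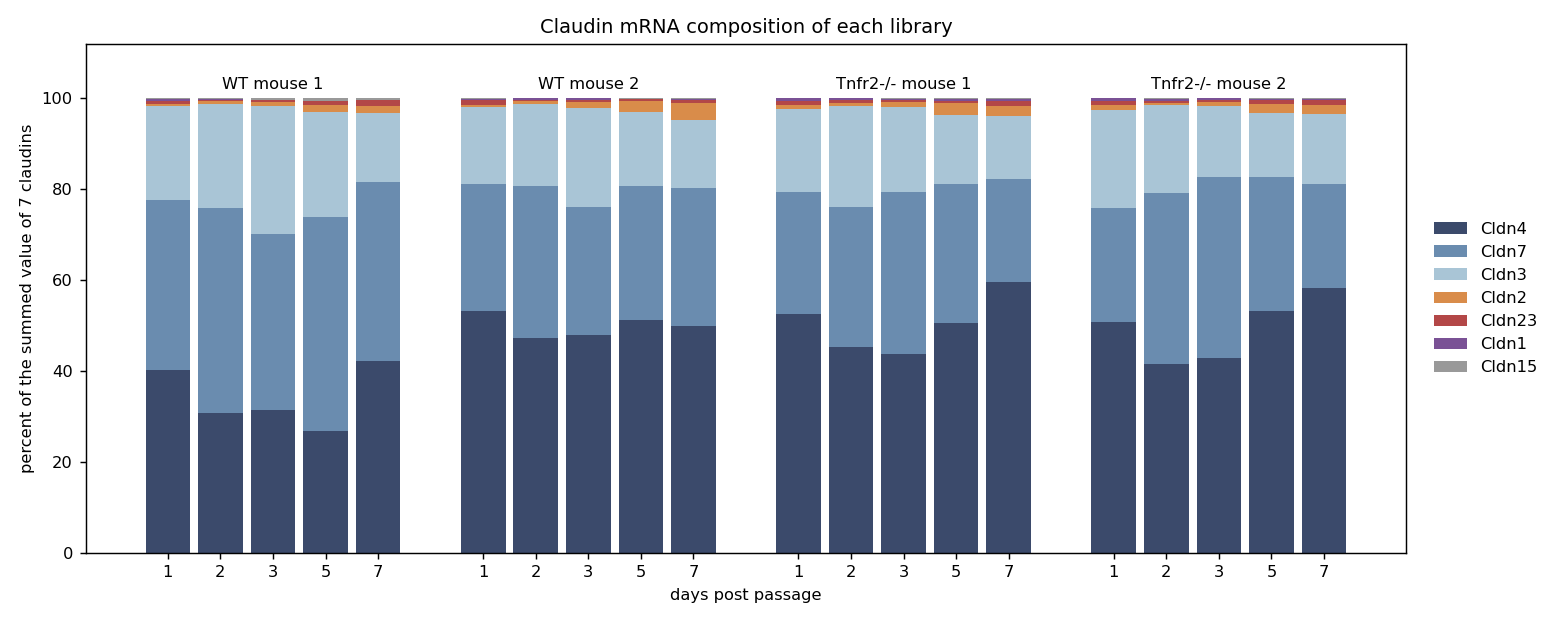
Percent of the summed normalised TPM of the 7 claudins held by each (vertical axis) in each of the 20 libraries, ordered by days post passage within each mouse. Cldn4, Cldn7 and Cldn3 fill nearly all of every bar, and the Cldn4 share of the late Tnfr2-/- bars is 50.5% to 59.7%.

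Of 27 further tight junction components, 3 were called higher and 1 lower in Tnfr2-/- over all days, against 7.60% of all genes tested. Cldn8, a sealing claudin of the distal colon, had means of 2.37 ± 1.98 in WT and 0.565 ± 0.430 in Tnfr2-/-. It passed the filter through the WT libraries, so its difference is given without a test. Mylk, the kinase that tightens the perijunctional actin ring, was lower by 0.62 on the log2 scale, from 2.57 to 1.24 (adjusted p = 0.0192), and Jam2 (0.69) and the polarity scaffold Mpp5 (0.47) were higher. Over the 27 further components the median difference was 0.00, against -0.03 over all genes.

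With time, 7 of the 27 were called higher and 2 lower in WT, against 20.1% of all genes, and 5 higher and 1 lower in Tnfr2-/-, against 20.3%. By lowest p in WT, the scaffold Tjp3 rose by 1.29 ± 0.23, from 37.4 to 90.6, Magi3 by 0.62 and the exchange factor Arhgef2 by 0.55, and the polarity protein Pard6b fell by 0.42 on the log2 scale. In Tnfr2-/- the adhesion receptor Cxadr rose by 1.02 ± 0.12, from 50.2 to 103, and Mpp5 by 0.72, and Ybx3, the ZO-1 binding transcription factor, fell by 0.56 on the log2 scale. Cldn14 read 0.238 early and 3.02 late, and since it passed the filter through the late libraries it is given without a test. Of 16 genes of the neighbouring adherens junctions and desmosomes 9 rose in WT and 10 in Tnfr2-/-, with no gene called lower, against the same 20.1% and 20.3%. E-cadherin (Cdh1) rose by 0.51 ± 0.08 in WT and 0.50 ± 0.08 in Tnfr2-/-, and the desmosomal cadherin Dsc2 by 1.06 and 1.10. Ctnnb1 rose by 0.59 in WT and Nectin2 by 0.66 in Tnfr2-/-. Between genotypes Cdh1 (0.25, adjusted p = 0.0221) and Nectin2 (0.39, adjusted p = 0.0208) were the 2 of the 16 called, both higher in Tnfr2-/-, against 7.60% of all genes.

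**Figure D4:**
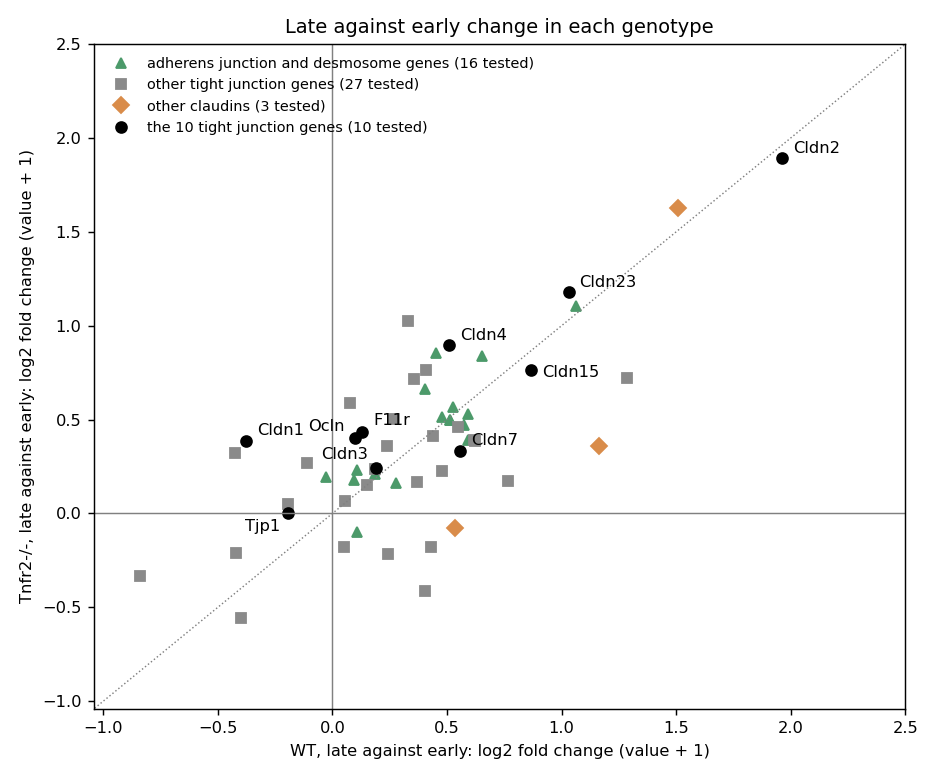
Log2 change of normalised TPM + 1, late against early, in WT (horizontal axis) and in Tnfr2-/- (vertical axis), with 1 point per gene for the 10 tight junction genes (black), 27 other tight junction genes (grey), 3 other claudins (orange) and 16 adherens junction and desmosome genes (green). The dotted line marks equal change, and Cldn2 (1.96 and 1.89) and Cldn23 (1.03 and 1.18) lie close to it.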

How the data were processed

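Single-end reads of stranded mRNA libraries were used. Per the labels, the authors quantified transcripts of mm10 with kallisto and compared them with sleuth. The deposited signal per transcript is TPM divided by a size factor per library, with library sums of 900655 to 1111080. The table also holds the authors' mean of natural log (ln) counts, used for depth only, and their genotype p-values, which were not used. Of 113974 lines, 781 repeats and 199 transcripts without a gene (at most 0.0989% of a library) were dropped, and values were summed per symbol. Genes with a mean of at least 1 (13539) were fitted on log2(value + 1) with limma 3.58.1 (R 4.3.3), letting the variance prior follow the mean (trend), and Benjamini-Hochberg adjustment (threshold 0.05). The pseudocount understates changes of scarce genes. The genotype effect over all days had day as a term, and the other comparisons were contrasts of 10 group means. The depth per library was not given by these values.

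The members and lists were chosen with earlier results of these data known, and the study had itself drawn gene lists holding several of them from these libraries. Named junction genes were the 4 of lowest p among those called (2 beside Cdh1 for adherens junctions and desmosomes) in 3 comparisons. Replicate numbers were read as naming mice, since the series' design gives 2 mice per genotype as its replicates. The reported fits had no term for the mouse, which entered only in the alternatives. Deviations of the same mouse correlated at 0.0998 to 0.307 in WT and -0.0511 to 0.0800 in Tnfr2-/-, and of equal numbers between genotypes, which are different mice, at -0.0536 to 0.0761. Promoters came from RefSeq (GRCm38.p6) and gene positions from GENCODE on GRCm38. The fit was also run on simulated data with independent libraries and no mouse effect, which cannot check the sharing of mice between libraries. P-values treat the libraries of a mouse as independent, so a genotype p-value that pools days may be smaller than the number of mice warrants. The alternatives were another pseudocount, no filter, 2 rescalings, Ensembl identifiers, 2 replicate blocks, mouse means and leaving out libraries or mice.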

Additional observations from a re-analysis of the deposited data

How the results depend on the processing

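Of the 60 values (10 genes in 6 comparisons), 11 were called. Cldn15, which passed the filter through WT mouse 1, is among the 10 genes and had no call. Over 480 alternative fits of the 60 values by pseudocount, filter, scaling, gene identifier, block and mouse mean, 459 kept direction and side of the threshold. Of the rest, 12 lost a call, 3 gained one and 6 changed sign. Those 6 were uncalled, and all but that of Cldn15 were small. With equal sums they were Cldn7 (-0.067) and Ocln (-0.069) over all days, Cldn3 early (-0.013) and Tjp1 late against early in Tnfr2-/- (-0.085). With the median ratio Tjp1 late against early in Tnfr2-/- read -0.0097. With a pseudocount of 0.1 Cldn15 for genotype by phase read 0.69. The causes were not tested. Numbers of genes called moved by more than 1.5 times as follows. On mouse means there were 7 over all days (1029 as reported), 0 late (873 as reported, while on mouse means 1859 had an unadjusted p under 0.05 in limma), 3 early (162), 1 for genotype by phase (20), 1727 for the late change in WT (2724) and 1796 in Tnfr2-/- (2755), with fewer samples. The replicate block with the mouse correlated gave 545 over all days and 47 by phase, and with the replicate number as a fixed term 280 early and 163 by phase, though equal numbers are different mice between genotypes. The block changed no call of the 10 genes other than those of Cldn4. By phase a pseudocount of 0.1 gave 10 and no filter 55. With equal sums the late genotype split of 515 higher and 358 lower became 417 and 546, and the early one of 104 and 58 became 79 and 75.

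Leaving out single libraries or mice gave 142 to 1928 genes over all days, 20 to 2212 late, 16 to 728 early, 0 to 137 by phase, 1035 to 2891 for WT and 2 to 3431 for Tnfr2-/-. The lowest Tnfr2-/- counts came on leaving out a knockout mouse, where single libraries are assumed to vary like the other groups. Over 1188 fits without 1 library, 30 calls of the 10 genes were lost, 5 gained and 54 signs changed, all of uncalled values. Over 234 fits without 1 mouse, 23 calls were lost and 24 signs changed. Calls gained without a mouse, some of them of Cldn15, are not counted here, since 1 mouse then stands for a genotype. The log2 ranges of the values that changed sign were, over all days, Cldn3 -0.055 to 0.21, Cldn7 -0.22 to 0.23, Ocln -0.088 to 0.094 and Tjp1 -0.088 to 0.012. In the late cultures they were Cldn2 -0.070 to 0.64, Cldn23 -0.076 to 1.07, Cldn3 -0.12 to 0.34, Cldn7 -0.50 to 0.24, Ocln -0.020 to 0.39 and Tjp1 -0.068 to 0.23, and in the early ones Cldn3 -0.061 to 0.17, Cldn4 -0.0037 to 0.73 and Cldn7 -0.031 to 0.22. By phase they were Cldn15 -0.64 to 0.21, Cldn2 -0.25 to 0.11, Cldn23 -0.57 to 0.87, Cldn3 -0.11 to 0.22 and Cldn7 -0.47 to 0.021. Late against early, Ocln in WT ran from -0.089 to 0.29 and Tjp1 in Tnfr2-/- from -0.063 to 0.065. Of the genes with a deposited mean of counts, depth limits Cldn1 and Cldn23 most.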

Other observations

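The claudins outside the 10 genes were few. Of the 18 looked for, Cldn12 was the most abundant, at 31.3 ± 9.2 in WT and 31.7 ± 7.7 in Tnfr2-/- (SD, n = 10 each). It rose late in WT by 0.53 ± 0.17 (limma, adjusted p = 0.0413), from 26.3 to 38.8, and read 32.6 and 30.2 in early and late Tnfr2-/- cultures (-0.08, adjusted p = 0.793). The difference between these changes was -0.61 ± 0.24 (limma, adjusted p = 0.333). Cldn8 had early and late means of 1.22 and 4.08 in WT and of 0.414 and 0.792 in Tnfr2-/-. Cldn14 had means of 0.388 and 3.91 in WT. Both passed the filter only through the libraries where they were high, so no test is given. Cldn5, the endothelial claudin, reached at most 0.399 in any library.

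Transcript shares within the genes varied between libraries. The Tjp1 transcript with the highest level, ENSMUST00000102592, held 44.9% ± 8.4 of the Tjp1 value in WT and 49.3% ± 4.8 in Tnfr2-/-. A second Ocln transcript, ENSMUST00000159459, held 8.39% ± 9.02 in WT and 16.4% ± 9.1 in Tnfr2-/- (SD, n = 10 each), with ranges of 0 to 20.4% and 0.359 to 29.2%. These shares were not tested.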
